A study of Caenorhabditis elegans with 2 samples.

Results

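The nuclear genes of Caenorhabditis elegans for the mitochondrial ribosome, for respiratory complexes I and IV and for the protein import complex of the outer membrane were examined for binding of the transcription factor CEH-48 near their 5′ ends. The members are all protein-coding genes named mrpl-, mrps-, nuo-, cox- or tomm- plus a number in Ensembl release 115 of the WBcel235 genome, on the nuclear chromosomes. This gave 96 of 19973 protein-coding genes. They were 41 mrpl genes, named for the large subunit of the mitochondrial ribosome, 29 mrps genes, named for its small subunit, 6 nuo genes for complex I, 15 cox genes for complex IV and 5 tomm genes for the import complex. The names cover only some of the respiratory chain: most complex I genes carry other names and are described separately, and 8 of the 15 cox genes make assembly factors rather than subunits.

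CEH-48 belongs to the ONECUT class of homeodomain transcription factors and is known from the worm's nervous system. Chromatin immunoprecipitation with sequencing (ChIP-seq) was done in 1 group with 2 biological replicates, each from whole late embryos of pooled sexes taken 3.5 hours after egg bleaching. Strain OP631 carries unc-119(tm4063) III and the transgene wgIs631, which makes CEH-48 with a GFP-FLAG tag at its C-terminal end; the description names a GFP antibody, whereas the antibody tag reads ceh-48. The deposited lists give regions with a summit and a signal in the authors' own units: 1840 reproducible (IDR) peaks, 30000 regions for the pooled replicates, 28372 for replicate 1 and 30000 for replicate 2. All samples carry the tagged protein, no untagged strain was analysed here, and whole embryos mix all tissues, so the cells in which a region was bound are not resolved. The IDR peaks are the 1840 pooled regions with the highest signal, from 85.2 to 1044. Pooled regions of lower signal are called sub-threshold below, and since the authors' lists mix peaks with background they include background. A gene is called bound when an IDR summit lay between 1000 bp upstream and 200 bp downstream of its annotated 5′ end.

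Mitochondria keep a small genome of their own that encodes a few core subunits of the respiratory chain, which a dedicated mitochondrial ribosome translates. All proteins of that ribosome, most subunits of complexes I and IV and the import machinery are made from nuclear genes, translated in the cytosol and brought in through the TOM complex. In C. elegans many such housekeeping genes sit in operons, in which several genes are transcribed from 1 upstream promoter and the later messages receive a trans-spliced leader, so the annotated 5′ end of a gene need not be its promoter.

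Sequences under 9 of the 18 summits are shown to let the ONECUT core be looked for by eye. Each is 61 bases centred on an IDR summit, read 5′ to 3′ on the strand of the gene from the WBcel235 (ce11) genome, for 8 of the 17 bound genes; mrps-28 has a pair of summits. They are not the strongest throughout: mrpl-15, mrpl-40, cox-4, cox-5B and mrpl-23 had higher signals than mrpl-12, the weakest one shown, and are not printed. Capitals mark ATCGAT, the core bound by ONECUT proteins, and its 1-base variant ATTGAT, on either strand.
mrps-28, distal summit, chrV:19643209-19643269, plus strand: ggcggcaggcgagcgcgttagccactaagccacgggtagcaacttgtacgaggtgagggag
mrps-28, proximal summit, chrV:19644045-19644105, plus strand: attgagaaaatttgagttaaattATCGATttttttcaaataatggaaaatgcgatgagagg
cox-5A, chrIII:12905196-12905256, plus strand: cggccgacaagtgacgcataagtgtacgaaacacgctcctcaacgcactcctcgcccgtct
mrpl-45, chrIII:1202346-1202406, minus strand: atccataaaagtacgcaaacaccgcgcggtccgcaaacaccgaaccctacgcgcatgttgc
mrpl-55, chrIV:443895-443955, plus strand: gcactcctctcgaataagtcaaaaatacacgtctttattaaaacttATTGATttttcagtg
mrps-7, chrIV:14767841-14767901, minus strand: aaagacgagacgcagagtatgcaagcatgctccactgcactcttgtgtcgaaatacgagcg
mrpl-37, chrII:13575694-13575754, minus strand: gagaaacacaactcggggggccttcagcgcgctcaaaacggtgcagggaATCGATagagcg
cox-6C, chrIV:126258-126318, plus strand: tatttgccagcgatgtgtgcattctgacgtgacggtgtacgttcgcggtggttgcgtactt
mrpl-12, chrIII:10707184-10707244, plus strand: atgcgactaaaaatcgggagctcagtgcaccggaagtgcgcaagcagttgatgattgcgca
The core lies in these stretches at the proximal mrps-28 summit and at mrpl-37, and the variant at mrpl-55. The other 6 stretches hold neither. Among the strong summits not printed, those of mrpl-15 and mrpl-40 also hold ATCGAT, centred 2.5 bp from the summit at mrpl-15 and 1.5 bp at mrpl-40, so the stretches shown are no measure of how often strong summits hold the core. Base composition differed widely among them, from 26.2% GC at the proximal mrps-28 summit to 63.9% at the distal one.

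CEH-48 was bound at 17 of the 96 genes (17.7%, 95% exact Clopper-Pearson interval 10.7 to 26.8), against 6.29% of all 19973 nuclear protein-coding genes. The 17 genes were mrpl-12, mrpl-15, mrpl-23, mrpl-37, mrpl-40, mrpl-45, mrpl-55, mrps-7, mrps-17, mrps-18A, mrps-28, nuo-2, cox-4, cox-5A, cox-5B, cox-6C and tomm-20. Another 45 genes had only a sub-threshold region in the window and 34 had no region. With any pooled region counted, the share was 64.6% (62 of 96), against 35.7% of all genes. Leaving aside bound genes, 57.0% (45 of 79) had a sub-threshold region, against 31.4% of all genes without an IDR summit. The shares describe which genes the lists reached and were not tested, because the genes were proposed with results of these data known.

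All 5 name classes held bound genes, and their shares could not be ordered at these numbers. The mrpl class had 7 bound genes of 41 (17.1%, interval 7.15 to 32.1) and the mrps class 4 of 29 (13.8%, 3.89 to 31.7). Complex IV names had 4 of 15 (26.7%, 7.79 to 55.1). The nuo and tomm classes had 1 bound gene each, of 6 (0.421 to 64.1%) and of 5 (0.505 to 71.6%). Each interval overlapped all of the others, and the intervals of the mrps, nuo and tomm classes also include the 6.29% of all genes. Any pooled region was found at 63.4% of mrpl, 65.5% of mrps, 83.3% of nuo, 53.3% of cox and 80.0% of tomm genes.

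**Figure D1:**
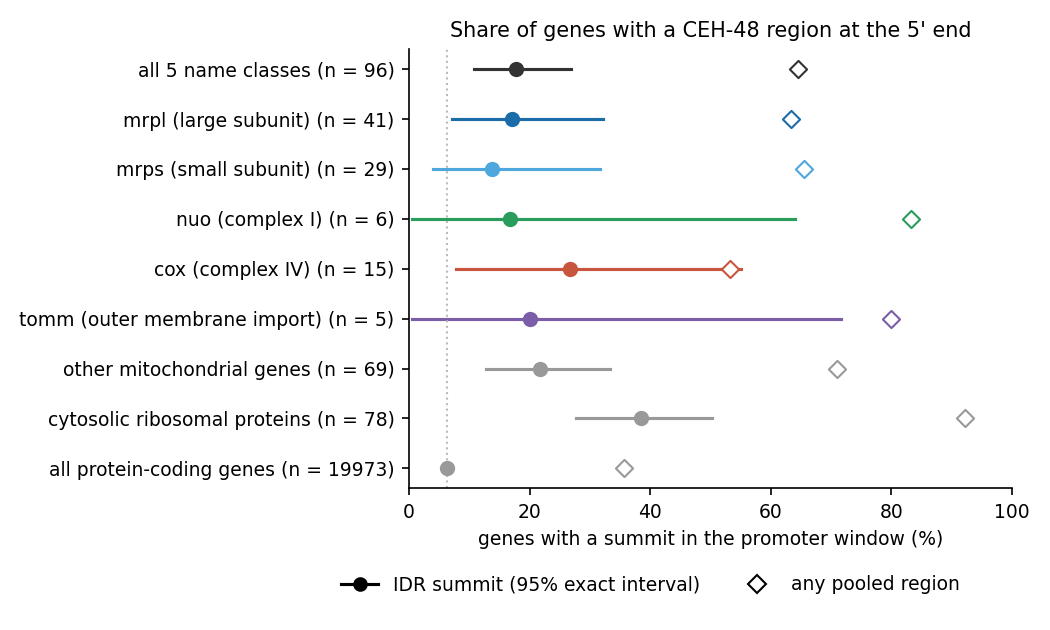
Share of genes (percent, x axis) with an IDR summit (filled points, lines are 95% exact binomial intervals) or any pooled region (open diamonds) in the promoter window, by name class and for the comparison lists (y axis); the dotted line is the 6.29% of all genes. The 5 name classes together reach 17.7% and 64.6%, against 6.29% and 35.7% for all nuclear protein-coding genes, and cytosolic ribosomal proteins 38.5% and 92.3%.

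Among proteins of the large mitochondrial subunit, mrpl-15 had the strongest summit. It lay 988 bp upstream of the gene on chromosome I (peak 1435164 to 1435413), with a signal of 107 in replicate 1, 221 in replicate 2 and 327 in the pooled list. The next gene upstream lies 11077 bp away, so this intergenic summit was in no other window. The summit of mrpl-45, whose human counterpart anchors the ribosome to the inner membrane, lay 368 bp upstream (chromosome III, 1202258 to 1202483), with signals of 84.0 in replicate 1, 190 in replicate 2 and 279 pooled. It was nearer to the divergent gene Y119D3B.12, whose 5′ end is 170 bp away. The summit of mrpl-40 lay 225 bp upstream (chromosome III, 87242 to 87462), inside the 5′ UTR of the divergent gene F54C4.4, with signals of 65.9 and 201 in replicates 1 and 2 and 264 pooled; it also fell in the window of attf-3, 950 bp upstream.

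The other 4 large-subunit genes had weaker summits. The summit of mrpl-55 was 60 bp upstream (chromosome IV, 443836 to 443991), in no other window, with signals of 55.1 in replicate 1, 166 in replicate 2 and 224 pooled. That of mrpl-37 was 656 bp upstream (chromosome II, 13575633 to 13575809), with 61.8, 137 and 197 in the same order, but only 201 bp from lin-38, a gene known from vulval development. Both lay outside other genes. For mrpl-23 the summit was 993 bp upstream, in an intron of fars-1, a cytosolic phenylalanyl-tRNA synthetase subunit gene that ends 95 bp before mrpl-23 on the same strand; the peak (chromosome I, 6212833 to 6212950) had 38.7 in replicate 1, 119 in replicate 2 and 163 pooled. For mrpl-12, the L7/L12 protein of the ribosomal stalk, it was 547 bp upstream (chromosome III, 10707029 to 10707398), with 37.0, 119 and 155, and nearer to Y39A1A.21 (192 bp) and Y39A1A.22 (186 bp).

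The strongest summit of all 18 lay in the window of a small-subunit gene, mrps-28. That gene was the only bound gene of the group with more than 1 IDR summit, against 29 of all 1256 bound genes (2.31%). Both summits were nearer to the 5′ end of the divergent gene Y43F8C.7, the distal one at 791 bp. The distal summit lay exactly at the window's edge, 1000 bp upstream, in an intron of Y43F8C.7 (chromosome V, 19643077 to 19643405), with signals of 112 in replicate 1, 310 in replicate 2 and 427 pooled (rank 70 of the pooled list). The proximal summit, 164 bp upstream and 45 bp from the 5′ end of Y43F8C.7 (19643932 to 19644195), had 105, 236 and 333 (rank 181). The window reaching 500 bp upstream loses the distal one and keeps the proximal one.

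The remaining small-subunit genes ranked lower. The summit of mrps-7, a protein of the small subunit's head, was 141 bp upstream (chromosome IV, 14767804 to 14767971), with 53.6 in replicate 1, 157 in replicate 2 and 213 pooled, and 330 bp from the divergent Y57G11C.3. That of mrps-17 was 212 bp upstream (chromosome III, 6431941 to 6432053), with 31.5, 113 and 138, and 168 bp from txdc-9. The weakest was mrps-18A, named for the small subunit although its human counterpart sits in the large one: 274 bp upstream, in an intron of ZC262.2 (chromosome III, 8332008 to 8332377), it had 15.1, 71.7 and 88.6. That summit ranked 9239 in replicate 1 and 1531 in replicate 2, so replicate 1 alone placed it far below the other summits; the windows of ZC262.2 (131 bp) and iglr-2 (882 bp) also held it.

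For complex IV, the terminal oxidase of the chain, the bound genes were all accessory subunits. The summit of cox-5A lay 265 bp upstream (chromosome III, 12905105 to 12905319), with signals of 72.5 in replicate 1, 227 in replicate 2 and 294 pooled, and was in no other window. The summit of cox-4 lay 405 bp upstream (chromosome I, 13659431 to 13659615), with 40.3, 171 and 213, also alone. The summit of cox-6C lay 443 bp upstream (chromosome IV, 126187 to 126370), with 50.1, 156 and 196, and 357 bp from grld-1. The summit of cox-5B, also called cco-1, lay 4 bp downstream of its own 5′ end (chromosome I, 9788628 to 9788802), with 49.5, 154 and 194, the only one of the 18 that was not upstream.

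Split by role, 4 of the 7 cox genes for subunits were bound and 6 had any pooled region, against 0 and 2 of the 8 genes for assembly factors; over all genes the shares were 6.29% bound and 35.7% with any pooled region. This split was chosen after the values were seen. The unbound subunits were cox-6A, cox-6B and cox-7C. The assembly factors include cox-10 and cox-15, which make heme A, cox-11, cox-17 and cox-19, which bring copper, and cox-18, which inserts a core subunit into the membrane; cox-11 and cox-15 had the sub-threshold regions. Gene order moved with the split: 5 of the 8 assembly genes and 0 of the 7 subunit genes lay close behind another gene on the same strand, and its part in the difference was not tested. An IDR summit did lie at the first gene of the run for 3 of the 5 assembly genes in such positions, cox-11, cox-17 and cox-18. Over all genes in such positions the share was 13.5%. The window reaching 2000 bp upstream added cox-10, with 8.53% of all genes bound in that window.

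Complex I and the import complex had 1 bound gene each among these names, both with low signals. The summit of nuo-2, the NDUFS3 subunit of the peripheral arm of complex I, lay 165 bp upstream (chromosome I, 6531943 to 6532312), in the 3′ UTR of T10E9.14, with 40.4 in replicate 1, 83.3 in replicate 2 and 127 pooled. T10E9.14 ends 19 bp before nuo-2 on the same strand. The summit of tomm-20, an import receptor on the mitochondrial surface, lay 290 bp upstream (chromosome V, 12343574 to 12343943), with 43.5, 83.1 and 128, in no other window.

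The 18 summits as a set stood above the middle of the IDR list. Their median pooled signal was 205, against 141 for all IDR peaks, and 14 of 18 exceeded that median, and 7 of 18 were among the IDR peaks in the top quartile of signal. In replicate 1 their signals ran from 15.1 to 112 (median 51.9) and in replicate 2 from 71.7 to 310 (median 156), so each summit was higher in replicate 2, as the whole list was (highest signal 315 in replicate 1 and 789 in replicate 2). All 18 were found in both replicates' lists. With the 1840 strongest regions of each replicate, 17 of 18 were in both, the exception being mrps-18A, against 1256 of all 1840 IDR peaks (68.3%). Read numbers are not part of the lists, so depth cannot be weighed in these differences.

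**Figure D2:**
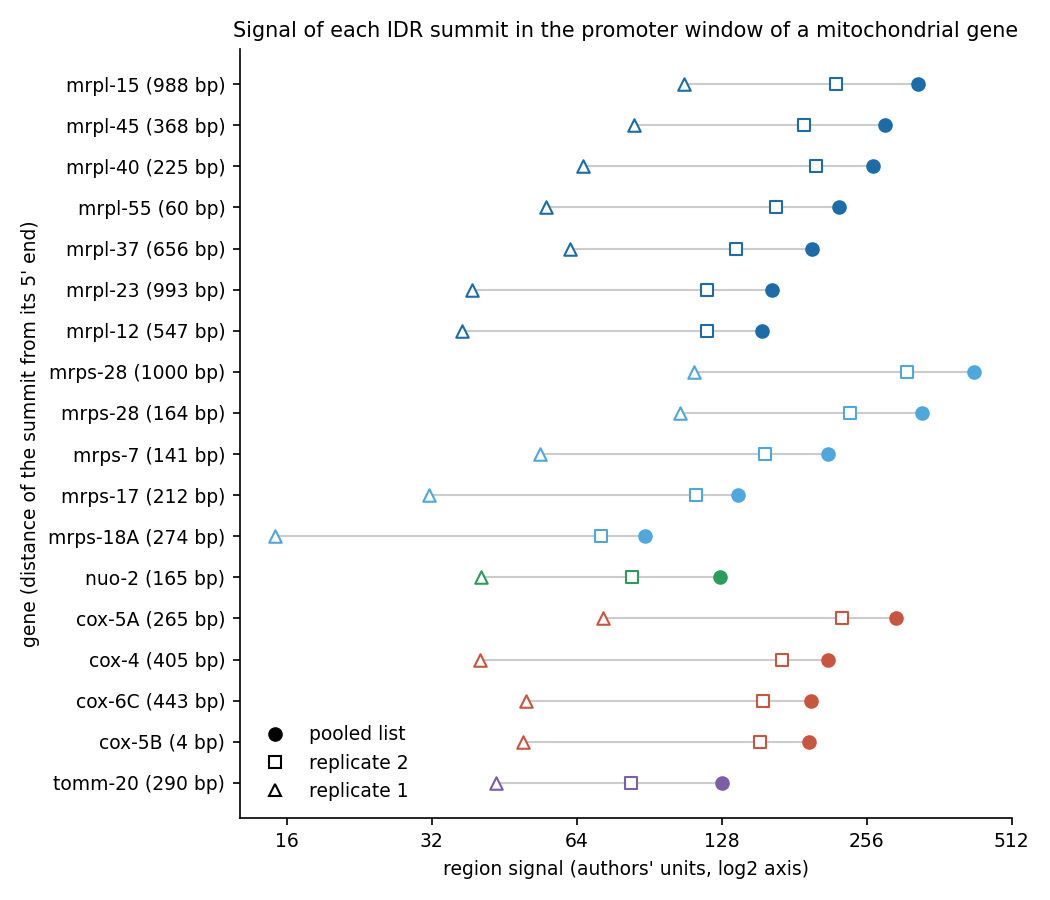
Signal (authors' units, log2 x axis) of each of the 18 IDR summits in replicate 1 (triangles), replicate 2 (squares) and the pooled list (circles), by name class and pooled signal; the y axis gives the gene and the summit's distance from its 5′ end, and each point is a single value without an error. The pooled signals run from 88.6 at mrps-18A to 427 at mrps-28, and replicate 2 lies above replicate 1 at every summit.

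Position relative to the 5′ end was close to that of bound genes in general. Of the 18 summits, 13 lay within 500 bp, against 987 of 1286 pairs of gene and summit over all genes (76.7%), and the median distance was 282 bp, against 240 bp. Upstream of the 5′ end were 17 of 18, against 92.0% of all pairs. Just inside the window's far edge were mrps-28, mrpl-23 and mrpl-15, and just outside it was mrpl-48, a large-subunit gene with a summit 1187 bp upstream (signal 119) at the 5′ end region of vps-37. A summit shared with another gene's window was seen for 9 of the 17 bound genes (52.9%), against 651 of all 1256 bound genes (51.8%), so sharing was at the level of the background. The genes sharing a summit were Y43F8C.7, Y119D3B.12, F54C4.4, attf-3, Y57G11C.3, lin-38, grld-1, Y39A1A.21, Y39A1A.22, txdc-9, ZC262.2 and iglr-2, and of these only iglr-2 is on the strand of its mitochondrial neighbour.

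**Figure D3:**
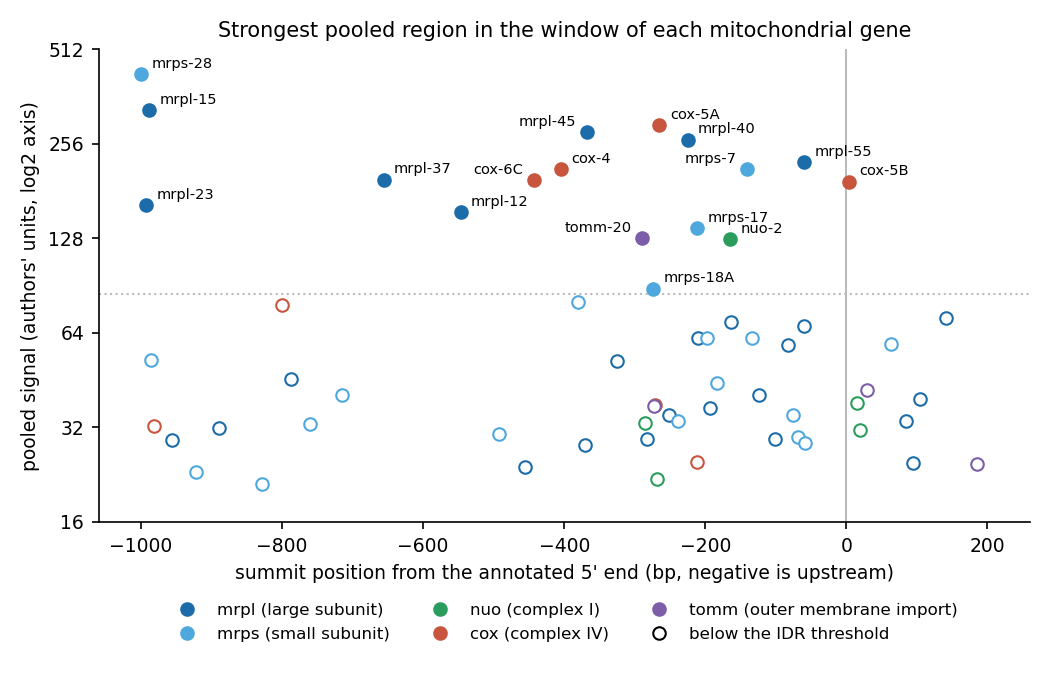
Position of the strongest pooled region in each window (bp from the annotated 5′ end, negative is upstream) against its pooled signal (authors' units, log2 axis) for the 62 genes with a region; filled points are IDR summits, open points sub-threshold regions, and the dotted line is the lowest IDR signal, 85.2. The IDR summits of mrps-28, mrpl-15 and mrpl-23 stand at the far edge of the window, and the weakest, mrps-18A, lies at 88.6, just above mrps-10 at 80.0.

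The choice of window and list set how many genes were counted. Between 500 bp upstream and 100 bp downstream there were 13 bound genes, against 4.77% of all genes, with mrpl-12, mrpl-15, mrpl-23 and mrpl-37 lost. Between 2000 bp upstream and 500 bp downstream there were 19, against 8.53%, with cox-10 and mrpl-48 added. With only the 920 strongest IDR peaks there were 13, against 3.21%, without mrps-17, mrps-18A, nuo-2 and tomm-20. Using the 5′ end of any transcript gave 18, against 6.78%, adding cox-6B. Giving each summit to the nearest 5′ end alone left 9, against 4.57%, and removed cox-6C, mrpl-12, mrpl-37, mrpl-40, mrpl-45, mrps-17, mrps-18A and mrps-28. The 1840 strongest regions of replicate 1 gave 17 bound genes, against 5.71% of all genes, and those of replicate 2 gave 16, against 6.33%. For any pooled region, the narrow window gave 49 genes, against 24.4%, and the wide one 79, against 50.4%.

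The core ATCGAT lay in the 100 bp around 6 of the 18 summits (33.3%), against 44.2% of all 1840 IDR summits and 38.3% of the IDR summits in promoter windows. The 6 were the proximal summit of mrps-28 and those of mrpl-15, mrpl-40, mrpl-37, cox-5A and mrps-17. The centre of the copy lay 1.5 bp from the summit at mrpl-40, 2.5 bp at mrpl-15 and 4.5 bp at the proximal mrps-28 summit, but 40.5 bp at cox-5A. In windows of the same width centred 500 bp to each side, 3 of 36 held it (8.33%). The share was 9.16% of such windows of all IDR summits and 6.36% of those of promoter summits. With 200 bp around the summit the count was 7 (38.9%), the addition being cox-6C, against 50.1% of all IDR summits and 44.2% of promoter summits. With ATCGAT or ATTGAT it was 10 (55.6%), against 62.4% and 58.9% in the same order. The share of the 18 summits with the core was thus below both backgrounds, but it rests on few summits, and the absence of a match says only that these letters are not in the window.

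Whole promoters were also read. From 500 bp upstream to 100 bp downstream, on either strand, the core was present at 11 of 17 bound genes (64.7%) and at 30 of 79 of the others (38.0%), against 50.5% of all bound genes and 21.1% of all genes. Together, 41 of the 96 promoters held it (42.7%). Median GC content was 35.1% in the 96 promoters and 34.6% in all promoters. Among the 96 it was 36.6% for bound genes and 34.8% for the others. The part of base composition in the shares was not tested.

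Repeats and tRNA genes were looked for at the summits. The soft-masked (repeat) sequence covered 3 of the 18 summits, those of mrpl-15, mrpl-45 and the proximal mrps-28 summit (16.7%), against 31.4% of all IDR summits and 23.5% of those in promoter windows. No tRNA gene lay within 200 bp of any of the 18, against 7.88% of all IDR summits and 3.08% of those in promoter windows. Over 18 summits these counts are too few to be set apart from the shares of promoter summits. The median GC content around the summits was 45.5%, against 46.0% for all IDR summits and 47.0% for promoter summits.

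Genes with only a sub-threshold region mostly lay nearer to the lowest pooled signal, 20.2, than to the lowest IDR signal, 85.2. Their best signals ran from 21.1 to 80.0, with a median of 35.0, against 33.0 for the 5881 genes of the genome in the same position. The highest was mrps-10, a small-subunit protein, with 16.0 in replicate 1, 61.6 in replicate 2 and 80.0 pooled at 380 bp upstream (rank 2020). The complex IV subunit gene cox-6A followed at 800 bp upstream with 27.6, 49.2 and 78.5, and the large-subunit gene mrpl-35 at 141 bp downstream with 29.2, 48.6 and 71.2. All 3 lay just outside the IDR list, whose lowest signal is 85.2, and replicate 1 alone placed mrpl-35 among its 1840 strongest regions (rank 1679).

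The next sub-threshold genes were again ribosomal. A region 163 bp upstream of mrpl-49, next to the divergent cytosolic ribosomal gene rpl-28, had 20.9 in replicate 1, 48.0 in replicate 2 and 69.1 pooled. A region 60 bp upstream of mrpl-44 had 21.5, 48.5 and 67.5 and was the only one of these 8 with the core. A region 198 bp upstream of mrps-16 had 15.0, 46.0 and 61.8. The divergent pair mrpl-1 and mrps-24, 1 gene of each ribosomal subunit, shared a single region 210 bp from mrpl-1 and 134 bp from mrps-24, with 12.1, 45.2 and 61.6. A further divergent gene, emc-6, lay nearer to mrps-24, with a gap of 308 bp against 343 bp for mrpl-1. Over all 45 genes the best region held ATCGAT at 5 (11.1%), against 10.1% of the 5881 genes and against 9.23% of all sub-threshold regions. The 8 named genes had a value in both replicates, but most of the 45 lacked a matching region in at least 1 replicate's list. For mrpl-20, mrps-18C, mrps-30 and mrps-34 neither list held one. How often this held over all genes was not counted.

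No pooled region lay in the window of 34 of the 96 genes, against 12836 of all 19973. Among the 34 were mrpl-10, mrpl-11, mrpl-13 and mrpl-16 of the large subunit, mrps-11, mrps-12, mrps-14 and mrps-15 of the small subunit, nuo-4 of complex I, the assembly genes cox-10, cox-14, cox-16 and cox-17, and tomm-7. The 34 lay close to their upstream neighbours: the median gap to the next gene upstream was 105 bp for the 34, 428 bp for the 45 with a sub-threshold region and 718 bp for the 17 bound genes, against 728 bp for all bound genes and 1156 bp for all genes. Over all genes the order was reversed, with 1207 bp for genes not bound. Of the 34, 22 lay within 500 bp behind another gene on the same strand (64.7%), against 18.1% of all genes.

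Many of the genes lay in operon-like runs, taken here as a gene within 500 bp behind another on the same strand. Of the 96, 36 did (37.5%), against 18.1% of all genes. Only 2 of these 36, mrpl-23 and nuo-2, were bound in their own window (5.56%), against 4.26% of all genes placed likewise. Outside such positions 15 of 60 were bound (25.0%), against 6.74%. Any pooled region was present at 14 of the 36 (38.9%), against 35.6%, and at 48 of the 60 (80.0%), against 35.8%. A divergent gene upstream was the position of 12 of the 17 bound genes (70.6%), against 67.2% of all bound genes and 45.4% of all genes.

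The window of the first gene of the run was then read for each of the 36 genes, a step chosen after seeing the data. An IDR summit lay there for 11 of 36 (30.6%), against 13.5% of all genes in such positions, and any pooled region for 31 (86.1%), against 49.9%. None of the 11 genes was bound in its own window. Over all genes, 1256 were bound in their own window and 486 had an IDR summit at the first gene. Either held for 1700, so few genes had both there too. Counting a gene by its own window or that of the first gene gave 28 of 96 (29.2%), against 8.51% of all genes. The labels hold no operon annotation, so spacing alone defined these runs.

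The strongest such summits were those ahead of 2 small-subunit genes. The run of mrps-11 begins with W04D2.4, where a summit 180 bp upstream had 118 in replicate 1, 353 in replicate 2 and 471 pooled (rank 49). The run of mrps-12 begins with num-1, a Numb-related gene, with 119, 301 and 418 at 765 bp upstream (rank 79). That of mrps-14 begins with nrde-2, a nuclear RNAi factor, with 27.1, 153 and 181 at 921 bp. Both mrps-11 and mrps-12 had no region in their own window. The 5′ end of num-1 lies 8269 bp from that of mrps-12, with a gap of 460 bp between the genes. A nearer IDR summit, with a signal of 178, lay 5167 bp upstream of mrps-12.

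Of the 11 genes, 4 were mrps, 3 were cox, 2 were mrpl and 2 were nuo genes. The 3 cox genes are among 5 assembly genes in runs, and cox-15 and cox-19 had no IDR summit at the first gene. The run of cox-17 begins with ubc-20, a ubiquitin-conjugating enzyme gene, with 42.9 in replicate 1, 102 in replicate 2 and 151 pooled at 185 bp upstream. That of cox-11 begins with lin-54, a DREAM complex subunit gene, with 47.6, 93.4 and 143 at 381 bp, and the same peak lay 12 bp upstream of the ribosomal protein gene rpl-12. That of cox-18 begins with Y55F3AR.2, with 19.2, 91.7 and 114. The other 5 were nuo-5 behind Y45G12B.2 (pooled signal 120), mrpl-48 behind vps-37 (119), mrps-30 behind eif-3.E (96.2), mrpl-32 behind rpn-3 (91.1) and nuo-4 behind syf-2 (90.4).

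**Figure D4:**
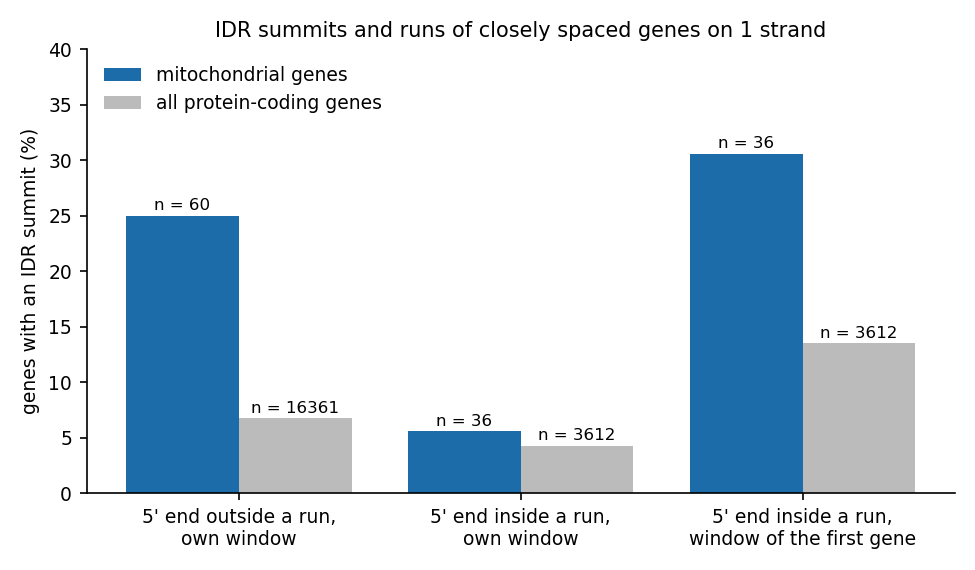
Share of genes (percent, y axis) with an IDR summit in their own window when outside an operon-like run, in their own window when inside a run, and in the window of the first gene of the run, for the 96 mitochondrial genes and all nuclear protein-coding genes; the number of genes stands above each bar. The mitochondrial genes stand at 25.0%, 5.56% and 30.6%, against 6.74%, 4.26% and 13.5% of all genes.

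Genes were unevenly placed on the chromosomes, with none of the 96 on X, which holds 2731 protein-coding genes. Chromosome III held 30, of which 6 were bound (20.0%), against 9.66% of all its genes. Chromosome I held 21 with 5 bound (23.8%), against 9.62%, chromosome IV 15 with 3 bound (20.0%), against 5.70%, and chromosome V 13 with 2 bound (15.4%), against 3.16%. Chromosome II held 17, and mrpl-37 was its only bound gene (5.88%), against 6.09%. The lists hold no region outside the 6 nuclear chromosomes.

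A list of other named genes of the respiratory chain and of the import and folding machinery gave a like share. Of its 69 genes 15 were bound (21.7%, interval 12.7 to 33.3), against 6.29% of all genes. Any pooled region was present at 49 (71.0%), against 35.7%. The intervals of both sets overlap, and their difference was not tested. Of the 28 other complex I genes 8 were bound (28.6%, interval 13.2 to 48.7). The strongest was nduv-3, with 66.2 in replicate 1, 300 in replicate 2 and 368 pooled, 124 bp upstream. Next were ndub-8 with 78.5, 227 and 304 and nduf-7, an iron-sulfur subunit gene, with 67.5, 176 and 246 at 16 bp upstream. The other 5 had pooled signals of 173 (ndua-2), 112 (nduf-11), 104 (ndua-8), 101 (ndua-13) and 95.7 (nduf-9).

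Each of the other complexes and lists had 1 or 2 bound genes. The exact interval of each of these shares includes the 6.29% of all genes, and import and sorting had the lowest share, 8.33%. Complex II had sdhd-1, a membrane anchor subunit gene, with a pooled signal of 106 (1 of 5 genes). Complex III had cyc-1, cytochrome c1, with 116 and the core protein gene ucr-2.1 with 112 (2 of 9). The ATP synthase had asg-2, its subunit g, with 228 and atp-1, its alpha subunit, with 104 (2 of 9), the second ranking 20723 in replicate 1. Import and sorting had mtx-1, a metaxin gene, with 85.3 (1 of 12; rank 18492 in replicate 1), and the chaperones and translation factors had hsp-60, the chaperonin, with 143 (1 of 6). Signals in replicate 1 were only 11.0 at atp-1 and 11.6 at mtx-1, whereas replicate 2 gave 93.5 at atp-1 and 70.6 at mtx-1.

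The set most like the mitochondrial ribosome, the 78 genes for cytosolic ribosomal proteins, had a higher share: 17.7% of the 96 mitochondrial genes were bound and 64.6% had any pooled region, against 30 of 78 (38.5%, interval 27.7 to 50.2) and 72 (92.3%) of the cytosolic set. The 2 intervals of the bound shares do not overlap, but gene order differed between the sets too. Operon-like positions held 37.5% of the 96 and 10.3% of the 78 genes. Outside such positions 25.0% of 60 mitochondrial genes were bound, but the like share of the cytosolic set was not counted. The part of gene order in the difference was not tested. No test of the difference was made, since both sets were named with results of these data known.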

How the data were processed

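The region lists were deposited in narrowPeak format for ce11, the assembly also called WBcel235; chromosome names and region ends were compared with the reference and matched. Signal is the value the authors deposited per region from their peak caller; the scale of that value is not stated. The aligner, the IDR settings and the name of the peak caller were not given in the sources used here. Per the deposited read-me files, the lists mix peaks with background and use a further input file common to all. Signals were therefore ranked only within a list. Replicate values came from a summit within 100 bp. Read depth is unknown, and exact intervals cover counting of genes only. Lists in ce10 coordinates were not used.

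The genes, comparison lists and alternatives were chosen with earlier results of these data known, so no set test was run. Named were all bound genes, all genes sharing their summits, the 8 strongest sub-threshold genes, the first 4 genes by name in each class without a region, all bound genes of the other mitochondrial lists and genes with a summit within 200 bp of the window. The cox split by role and the first genes of runs were named after their values were seen. The window join was tested on planted summits. Analyses used Python 3.11.15, numpy 2.4.6, pandas 2.3.3, scipy 1.17.1 and matplotlib 3.10.9.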

Additional observations from a re-analysis of the deposited data

How the results depend on the processing

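The count of 17 bound genes stayed within 1.5 times under other windows, the 920 strongest peaks, any transcript's 5′ end and each replicate alone (16 to 17 genes), but was 9 when each summit went to the nearest 5′ end only and 28 when the first gene of an operon-like run was added, an alternative chosen after seeing the data. With the nearest 5′ end only, bound mrpl genes numbered 3 in place of 7, mrps genes 1 in place of 4 and the other mitochondrial genes 9 in place of 15. With the 920 strongest peaks, mrps genes numbered 2, nuo genes 0, tomm genes 0 and the other mitochondrial genes 6. The narrow window left 3 mrpl genes. Summits with the core numbered 10 with ATCGAT or ATTGAT in place of 6, and 4 to 6 with 1 replicate's list alone. Of 34 ranks of bound genes in single replicates, 9 differed from the pooled rank by at least 1 SD of the 2 replicates' ranks, all in replicate 1. That SD comes from the same 2 ranks, so the count does not measure how stable the ranks are. The cause was not tested. No paired analysis was possible because the samples form 1 group. Depth, an untagged control and the tissue of origin limit these values.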
